A study of Mus musculus with 8 samples.

Results

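The Slc25 genes encode the mitochondrial carrier family, the proteins that move metabolites, nucleotides, cofactors and ions across the inner membrane of the mitochondrion. They were taken here as every probe of the array, other than control spots, whose gene name is Slc25a followed by a number. This gave 74 probes for 44 genes, out of 41174 probes for 27398 genes in all. The arrays measured RNA of the tibialis anterior, a muscle at the front of the shin, from male C57BL/6 mice aged 8 weeks. In the Prep1deltaSM group (n = 4), Prep1 was ablated in skeletal muscle, and the Prep1f/+ group (n = 4) carried a floxed Prep1 allele. Prep1 is the protein of the gene Pknox1, a homeodomain transcription factor that works with Pbx partners. The labels do not name the promoter that drove the deletion, nor say whether the Prep1f/+ mice carried a recombinase, and whole muscle also holds other cells. Each mouse gave 1 array, and p-values here measure the spread between these samples.

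Carriers share a fold built from a repeated pair of membrane helices, and most work as exchangers that let one solute in as another goes out. In muscle the adenine nucleotide carriers bring ADP in and send ATP out, the phosphate carrier brings in the phosphate that ATP synthase needs, and the aspartate/glutamate and oxoglutarate carriers serve the malate-aspartate shuttle. The carnitine/acylcarnitine carrier brings in fatty acids for oxidation. Other members carry citrate, cofactors, iron-related cargo and amino acids, and relatives of the uncoupling proteins belong to the same family.

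Each probe is a strand of 60 bases, and the files give where its ends lie in the mouse build mm9. Those of Slc25a3, Slc25a33 and Slc25a39 shown first have ends farther apart in the genome than 60 bases, and are printed whole because these probes carry some of the largest differences described below. The others, printed as their first 30 bases, are the Slc25a20 probe, the brighter Slc25a30 probe, the second probes of Slc25a33 and Slc25a39, and the Slc25a12 probe farthest downstream. All run 5′ to 3′ as the files write them, on the strand named; no letters are in capitals because no part of a probe is singled out.
Slc25a3, A_51_P269652, chr10:90580961-90581502, minus: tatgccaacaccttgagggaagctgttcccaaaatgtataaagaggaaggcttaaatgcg
Slc25a33, A_51_P156434, chr4:149123432-149126565, minus: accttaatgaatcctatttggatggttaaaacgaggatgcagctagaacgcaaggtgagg
Slc25a39, A_51_P121455, chr11:102266350-102267022, minus: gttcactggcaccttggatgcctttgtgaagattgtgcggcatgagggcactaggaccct
Slc25a33, A_51_P156438, chr4:149118713-149118772, minus: agtgttcaaaactgaaacagtgaaggccat
Slc25a39, A_52_P560792, chr11:102264539-102264598, minus: cgcctcccgaattcaagaccaaatctgatg
Slc25a20, A_51_P344008, chr9:108585399-108585458, plus: taatggtttcagagatgtgttgagagagct
Slc25a30, A_52_P193533, chr14:76161603-76161662, minus: agaggtgaggctccagagttttagccttta
Slc25a12, A_52_P971776, chr2:71109816-71109875, minus: actaacattttaattttaatatgtccaaat

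Signals are given as log2 intensity relative to the 75th percentile of the same array, and a difference is Prep1deltaSM minus Prep1f/+ on that scale. Levels of different probes are not comparable, so only differences are set side by side between genes. Between 23787 and 27123 of the 43379 non-control spots of an array were well above background, and every one of the 4 slides carried both genotypes, 1 array each. The targeted gene Pknox1 read -0.09, -0.31, -0.21 and -0.51 in Prep1f/+ and -1.84, -2.08, -2.28 and -1.96 in Prep1deltaSM. The Prep1deltaSM values all lay below the Prep1f/+ values, a difference of -1.76 ± 0.13 (SE; limma adjusted p = 0.0072). That call was lost without Prep1f/+ replicate 2 (adjusted p = 0.0656), Prep1f/+ replicate 3 (0.0641) or Prep1deltaSM replicate 2 (0.0738), and with the slide as a block (0.062). Pknox1 was the 1 gene of 16016 tested to pass the threshold of 0.05, which is 0.00624% of genes called lower and 0% called higher.

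Of the 44 Slc25 genes, 38 had a probe that stood well above background in 4 or more of the 8 arrays, and these were tested through their brightest such probe. In limma 0 of the 38 passed an adjusted p of 0.05, and the smallest was 0.119. At an unadjusted p under 0.05, 3 members were higher (Slc25a3, Slc25a20 and Slc25a30; 7.89% of those tested against 5.54% of all genes) and 0 were lower (against 10.3%). The median member difference was -0.01 against -0.07 for all genes. By sign alone 18 were higher and 20 lower, while 37.3% of all genes were higher and 62.7% lower. The values of all genes depended on the scaling. Their median was -0.03 after quantile normalization and -0.02 after normexp and quantile normalization, where that of the members was 0.0025 and 0.0022. The share of all genes lower at an unadjusted limma p under 0.05 was then 8.13% and 8.77%. The middle portion of the family, between its quartiles, lay between -0.14 and 0.09. The extremes were -0.46 for Slc25a34, on a dim probe, and 0.52 for Slc25a3. The median spread of a member within groups, 0.21 (pooled SD), was close to the 0.19 of all genes.

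**Figure D1:**
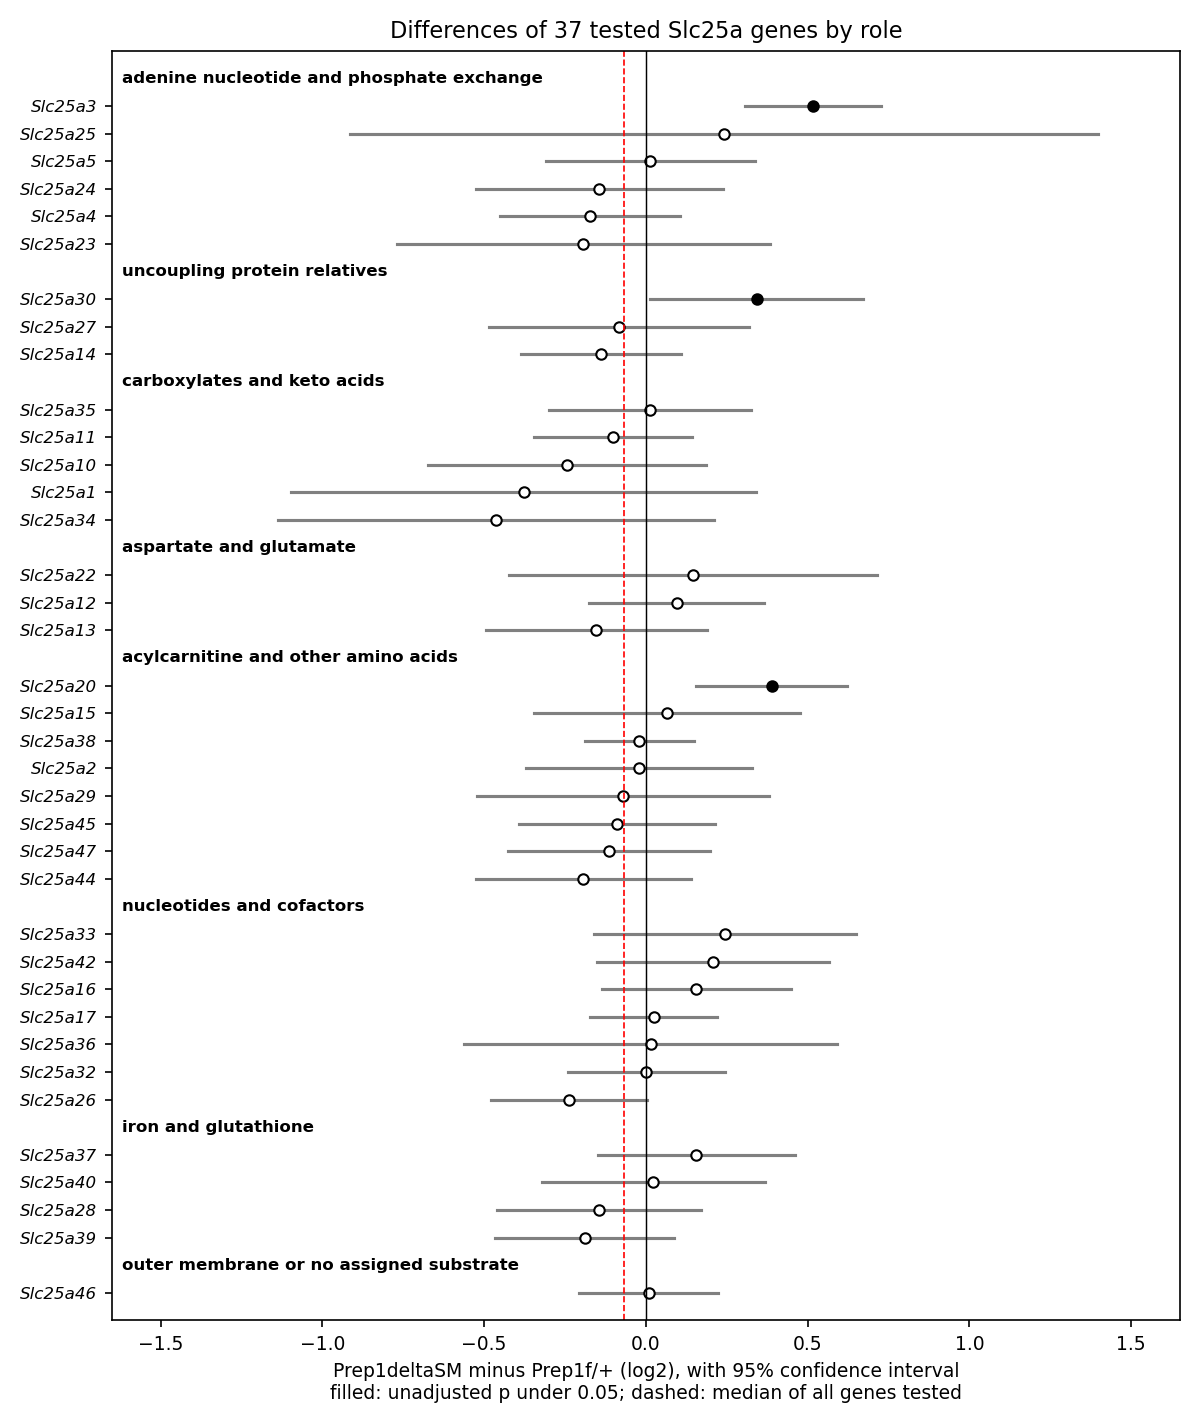
Difference of each of 37 tested Slc25 genes, Prep1deltaSM minus Prep1f/+ in log2, with its 95% confidence interval, grouped by what the carriers move. Slc25a3, Slc25a20 and Slc25a30 lie to the right of 0 with intervals that leave it out; the dashed line is the median of all genes, -0.07.

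The phosphate carrier gene Slc25a3 had the smallest p of the family. Its probe read 5.95, 5.93, 5.94 and 5.68 in Prep1f/+ and 6.28, 6.41, 6.45 and 6.42 in Prep1deltaSM. The groups did not overlap, and Prep1f/+ replicate 4 was the lowest array. The difference was 0.52 ± 0.09 (SE; 95% confidence interval 0.31 to 0.73), or 1.43-fold, with an unadjusted p of 0.000433 and a limma adjusted p of 0.119. It was positive on each slide, from 0.35 to 0.77. With normexp background correction followed by quantile normalization the difference was 0.62 and passed (adjusted p = 0.0232), in a setting where 26 genes passed in all. Without Prep1f/+ replicate 4 it was 0.45.

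The adenine nucleotide carriers beside it in the same step of ATP supply did not pass the test. The Slc25a4 probe A_51_P108334 for ANT1, the main form in muscle, read 10.96, 11.08, 10.76 and 11.23 in Prep1f/+ and 10.79, 10.70, 10.84 and 11.01 in Prep1deltaSM. The groups overlapped, with a difference of -0.17 ± 0.12 (SE; adjusted p = 0.505). The scanner signal of this probe stayed within 327000 to 354000 on all arrays although the 75th percentile of the arrays ran from 139 to 197, and after quantile normalization its difference was 0. A second Slc25a4 probe, with signals of 148000 to 221000, differed by 0.06. Slc25a5, which encodes ANT2, read 4.27, 4.63, 4.41 and 4.68 against 4.38, 4.49, 4.34 and 4.84, a difference of 0.01 ± 0.14 (SE) whose sign turned when Prep1f/+ replicates 1 and 4 were left out.

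The calcium-regulated ATP-Mg/phosphate carriers Slc25a23, Slc25a24 and Slc25a25, which adjust the adenine nucleotide pool of the matrix, differed by -0.19, -0.14 and 0.24. The Slc25a23 probe was dim, with scanner signals of 5.78 to 13.5, and was well above background on 6 arrays. Its difference was -0.05 after normexp and quantile normalization. Slc25a25 varied more within groups than any other member, with a pooled SD of 0.84 that lay at percentile 98.0 of all genes. It read 1.77, 2.65, 3.34 and 3.72 in Prep1f/+ and 3.15, 2.23, 2.87 and 4.2 in Prep1deltaSM. Prep1f/+ replicate 1 was lowest and Prep1deltaSM replicate 4 highest, and all 3 kept Slc25a25 probes shared both extremes. The group difference had a 95% confidence interval of -0.92 to 1.40, and it was -0.12 without Prep1f/+ replicate 1 or without Prep1deltaSM replicate 4.

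**Figure D2:**
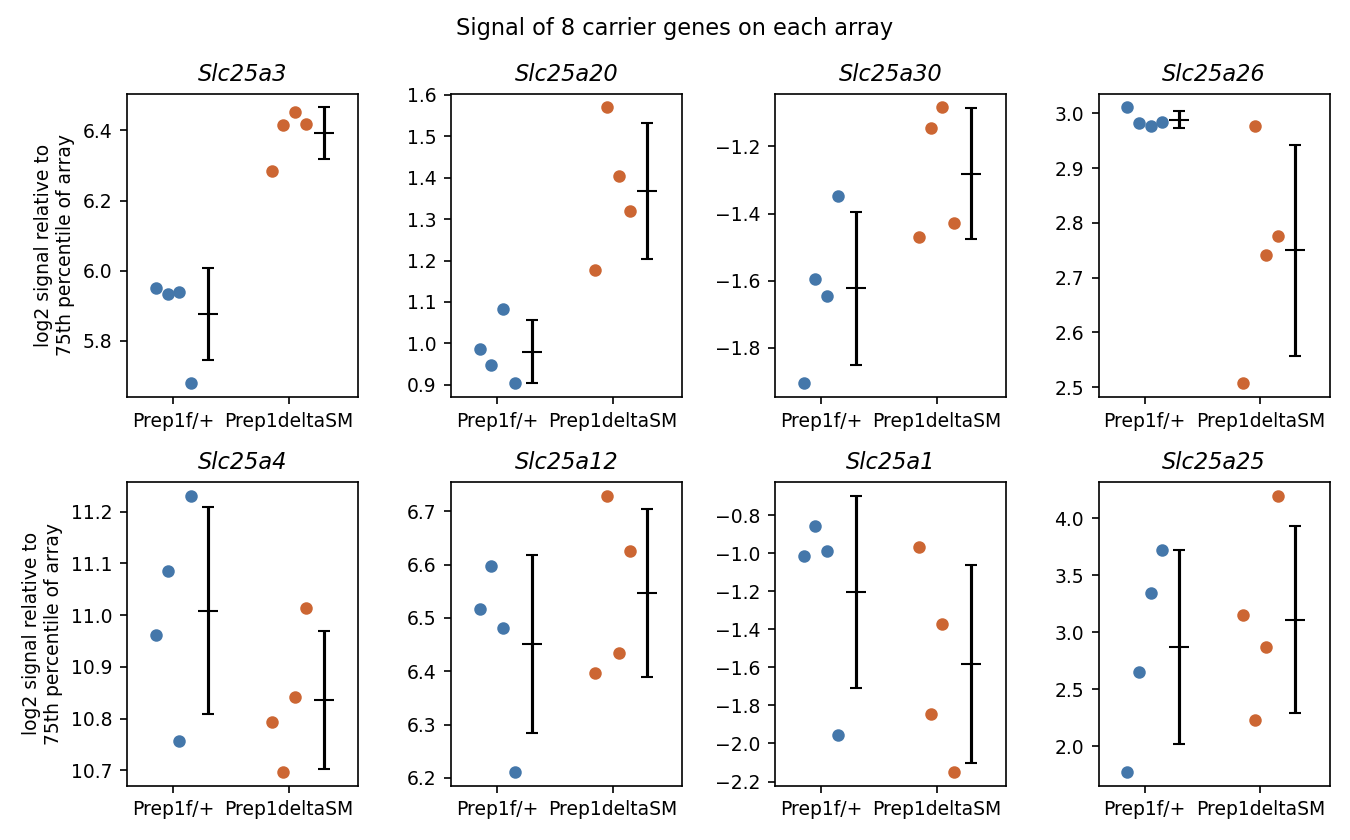
log2 signal relative to the 75th percentile of the array for 8 members, one point per array with mean ± SD (n = 4) beside each group; each panel has its own axis. Slc25a3 and Slc25a20 are separated between groups, while the 6 other genes overlap.

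Slc25a20, the carnitine/acylcarnitine carrier, was the other tested member whose groups did not overlap: 2 of 38 were higher without overlap against 3.72% of all genes, and 0 were lower against 6.74%. It read 0.99, 0.95, 1.08 and 0.90 in Prep1f/+ and 1.18, 1.57, 1.40 and 1.32 in Prep1deltaSM. Every Prep1deltaSM array lay above every Prep1f/+ array. The difference of 0.39 ± 0.10 (SE; 95% confidence interval 0.16 to 0.62) had an unadjusted p of 0.00459 and a limma adjusted p of 0.176. It was positive on each slide, from 0.23 to 0.50. The enzyme before it in fatty acid entry, Cpt1b, read 6.05, 6.27, 5.93 and 6.24 against 5.69, 6.18, 5.72 and 6.03, a difference of -0.21 ± 0.14 (SE) with overlap.

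The other tested genes grouped with Slc25a20, most of them amino acid carriers, lay between -0.19 and 0.06. Slc25a44, a carrier of branched-chain amino acids, differed by -0.19 ± 0.15 (SE; adjusted p = 0.533). Slc25a15 and Slc25a2, the ornithine carriers, differed by 0.06 and -0.02, and Slc25a38, linked to glycine entry for haem synthesis, by -0.02. Slc25a29, a carrier of basic amino acids, differed by -0.07, Slc25a45 by -0.09 and Slc25a47 by -0.11. None of these 7 had an unadjusted p under 0.05 in this fit. Without Prep1f/+ replicate 4, Slc25a44 (-0.31), Slc25a45 (-0.22), Slc25a47 (-0.24) and, of the carboxylate carriers, Slc25a1 (-0.63) had unadjusted p-values of 0.0396, 0.0236, 0.0444 and 0.0481, while 11.5% of all genes were lower at that level in the same fit.

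Among the relatives of the uncoupling proteins, Slc25a30 read -1.91, -1.59, -1.64 and -1.35 in Prep1f/+ and -1.47, -1.14, -1.08 and -1.43 in Prep1deltaSM. Prep1f/+ replicate 4 reached into the Prep1deltaSM range. The difference was 0.34 ± 0.14 (SE; unadjusted p = 0.0432, limma adjusted p = 0.300), and a second kept probe differed by 0.45 ± 0.15 (SE). Its unadjusted p rose above 0.05 without Prep1f/+ replicate 1, 2 or 3 or Prep1deltaSM replicate 2 or 3, without Prep1f/+ replicates 1 and 4 together (0.053), with no filter (0.0591), and with normexp and quantile normalization (0.0507), where the difference was 0.16. Slc25a14 and Slc25a27 differed by -0.14 and -0.08. The uncoupling protein genes under their own symbols differed by 0.54 ± 0.38 (SE; Ucp3, the form of skeletal muscle) and -0.06 ± 0.10 (SE; Ucp2), and neither passed.

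Of the 3 tested aspartate and glutamate carriers, 0 had an unadjusted p under 0.05. Slc25a12 encodes aralar, the aspartate/glutamate carrier of muscle and brain. Its brightest probe read 6.52, 6.60, 6.48 and 6.21 against 6.40, 6.73, 6.44 and 6.63, a difference of 0.10 ± 0.12 (SE) with overlap. The probe farthest downstream read -0.92, -1.04, -1.16 and -1.09 against -0.63, -0.49, -0.69 and -0.44, so that its groups did not overlap (0.49 ± 0.10 SE; unadjusted p = 0.000738 with every probe fitted on its own row). The probe farthest upstream differed by -0.19. Slc25a13, which encodes citrin, differed by -0.15 ± 0.15 (SE), and the glutamate carrier Slc25a22 by 0.15 ± 0.25 (SE).

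The enzymes and partners of the shuttles did not pass either. Got1 and Mdh1 of the malate-aspartate shuttle differed by 0.03 ± 0.15 and -0.09 ± 0.15 (SE). Gpd2, the mitochondrial enzyme of the glycerol phosphate shuttle, read 3.58, 3.65, 3.65 and 3.59 in Prep1f/+ and 3.90, 4.05, 3.90 and 3.87 in Prep1deltaSM. Its groups did not overlap, with a difference of 0.31 ± 0.08 (SE; unadjusted p = 0.00317, limma adjusted p = 0.163). Me2, mitochondrial malic enzyme, lay lower without overlap (-0.25 ± 0.11 SE; adjusted p = 0.304). Of the 14 genes tested in this list, 5 were higher and 9 lower, and the median was -0.07, as for all genes.

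Of the 5 tested carriers of carboxylates, 1 was higher and 4 were lower. Their median was -0.24, where that of all genes was -0.07, and none had an unadjusted p under 0.05. Slc25a11, the oxoglutarate carrier of the malate-aspartate shuttle, read 7.60, 7.66, 7.40 and 7.43 against 7.24, 7.59, 7.38 and 7.47, a difference of -0.10 ± 0.11 (SE) that came to 0.00 after normexp and quantile normalization. The dicarboxylate carrier gene Slc25a10 differed by -0.24 ± 0.19 (SE), and Slc25a34, whose substrate is not settled, by -0.46 ± 0.29 (SE). The Slc25a34 probe was dim, with scanner signals of 5.67 to 14.5, and was well above background on 7 arrays. Its difference was -0.04 after normexp and quantile normalization. Slc25a35 differed by 0.01.

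The citrate carrier gene Slc25a1 supplies citrate for fatty acid synthesis and is abundant in fat. It read -1.02, -0.86, -0.99 and -1.96 in Prep1f/+ and -0.97, -1.84, -1.37 and -2.15 in Prep1deltaSM, a difference of -0.38 ± 0.31 (SE). The arrays at -1.84 or below were Prep1f/+ replicate 4 and Prep1deltaSM replicates 2 and 4. The 9 tested adipocyte markers, averaged as deviations from the mean over arrays, ran from -0.36 to 0.86 in Prep1f/+ and from -1.49 to 0.69 in Prep1deltaSM, and the same 3 arrays had the 3 lowest values of this average (-0.36, -1.49 and -0.998). The markers did not all do so: Plin1, Cfd, Retn and Adipoq were lowest on these 3 arrays. Lpl and Plin4 were instead highest in Prep1deltaSM replicate 4, and Cidea was highest in Prep1f/+ replicate 4. The part of fat cells in the Slc25a1 signal was not tested, and in whole muscle fewer cells of a type and less RNA per cell cannot be told apart.

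**Figure D3:**
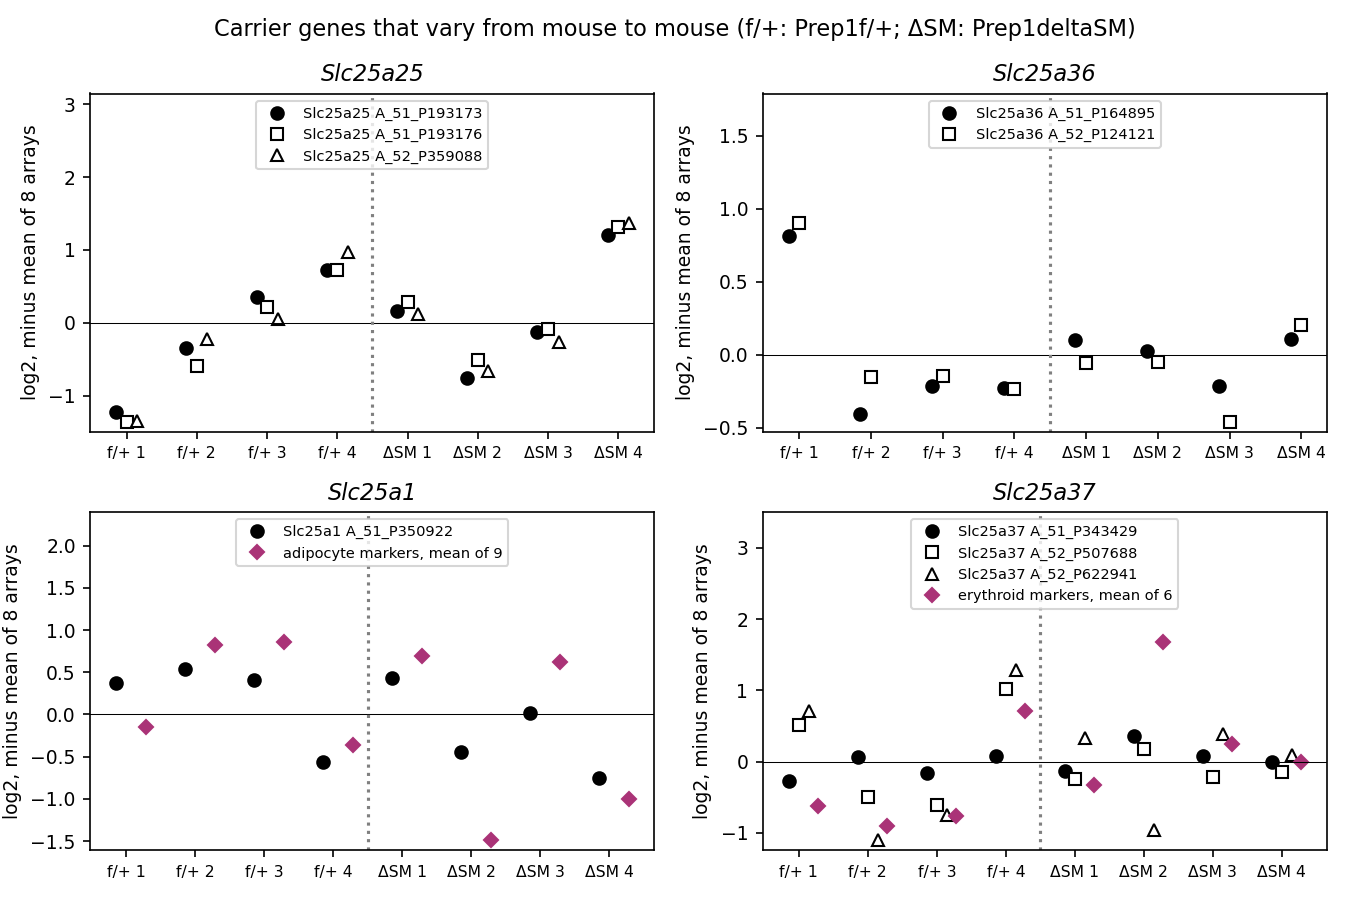
Deviation of each array from the mean of the 8 arrays (log2) for 4 members, with a symbol for each kept probe (filled for the probe that represents the gene) and, for Slc25a1 and Slc25a37, diamonds for the mean of 9 adipocyte or 6 erythroid markers. The 3 probes of Slc25a25 and both probes of Slc25a36 follow each other, whereas the Slc25a37 probes, of which A_52_P622941 was dim, do not.

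Carriers of nucleotides and cofactors numbered 8 tested genes, 6 higher and 2 lower; the median was 0.02. Slc25a26, which brings S-adenosylmethionine into mitochondria, read 3.01, 2.98, 2.98 and 2.98 in Prep1f/+ and 2.51, 2.98, 2.74 and 2.78 in Prep1deltaSM. Prep1deltaSM replicate 2 lay level with the Prep1f/+ arrays and the 3 others below them, a difference of -0.24 ± 0.11 (SE; unadjusted p = 0.0520, limma adjusted p = 0.319). Its other probe differed by 0.07. The brighter probe of the pyrimidine nucleotide carrier gene Slc25a33 differed by 0.24 ± 0.18 (SE), and this value was -0.04 without Prep1f/+ replicates 1 and 4.

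Slc25a42, a coenzyme A carrier, and Slc25a16 differed by 0.21 and 0.16. Slc25a17, a peroxisomal member that carries cofactors, differed by 0.02 and the folate carrier gene Slc25a32 by 0.00. Slc25a36, a second pyrimidine nucleotide carrier, read 0.11 in Prep1f/+ replicate 1 and between -1.11 and -0.60 on the 7 other arrays. Its second probe read 0.04 on that array and from -1.32 to -0.65 on the others. The difference of 0.01 therefore came to 0.29 without that array.

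The iron and glutathione carriers held 4 tested genes, 2 higher and 2 lower. Slc25a37 and Slc25a28 encode mitoferrins, which bring iron into mitochondria in erythroid and in other cells respectively. Slc25a37 read 2.28, 2.62, 2.40 and 2.64 against 2.44, 2.93, 2.65 and 2.55, a difference of 0.16 ± 0.13 (SE) with overlap. Its other kept probes differed by -0.22 and, on a dim probe, by -0.07. Of the 6 tested erythroid markers, 5 were higher, with array means from -0.91 to 0.71 in Prep1f/+ and -0.33 to 1.68 in Prep1deltaSM; Prep1deltaSM replicate 2 held the highest of these means and the highest Slc25a37 value, and the part of red cells in that value was not tested. Slc25a28 differed by -0.14 ± 0.14 (SE). Slc25a40 differed by 0.02 and its relative Slc25a39, a carrier needed for mitochondrial glutathione, by -0.19 ± 0.12 (SE) on its brightest probe. Slc25a46, a member of the outer membrane tied to mitochondrial shape, differed by 0.01 ± 0.09 (SE) on its brightest probe.

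The other probes of several members gave different values. The kept Slc25a probes were 8 with ends over 60 bases apart in mm9 and 50 with ends 60 bases apart. Every one of the 24488 kept probes was fitted on its own row. In that fit 8 of the kept Slc25a probes had an unadjusted p under 0.05 with higher signal, against 9.66% of all kept probes. With lower signal there were 0, against 8.09%. An adjusted p of 0.05 was passed by 0, against 0.00408% of all kept probes. The 8 probes with higher signal at that level belonged to Slc25a3, Slc25a12, Slc25a20, Slc25a30 (2 probes), Slc25a33, Slc25a39 and Slc25a46. The second Slc25a33 probe, printed whole above, read -1.18, -0.28, -0.20 and -0.89 in Prep1f/+ and -0.02, 0.09, 0.09 and 0.13 in Prep1deltaSM. The groups did not overlap, a difference of 0.71 ± 0.21 (SE). The Slc25a39 probe A_51_P121455 read -0.61, -1.18, -1.54 and -1.12 against -0.58, -0.29, -0.56 and -0.79, a difference of 0.56 ± 0.20 (SE) with overlap, opposite in sign to the -0.19 of its brightest probe. The Slc25a46 probe A_52_P21724 read -0.97, -0.97, -1.08 and -0.89 against -0.35, -0.25, -0.34 and -0.57, without overlap (0.60 ± 0.10 SE; unadjusted p = 0.000202). Its other kept probes differed by 0.01 and -0.05.

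Differences of probes of 1 gene were also set against where the probes lie on it. For the 14 members with more than 1 kept probe, the probe farthest upstream on the strand of the gene was compared with the one farthest downstream. The upstream probe had the higher difference in 12, with a median change of 0.21 over the 14. Over all 5522 genes with such probes at least 100 bases apart this held for 67.9%, with a median of 0.12. Among the 12 is Slc25a4, whose downstream probe had scanner signals of 327000 to 354000 on all arrays. The difference of that probe was 0 after quantile normalization. The exceptions to this direction were Slc25a12 (-0.19 upstream, 0.49 downstream) and Slc25a37. The upstream Slc25a37 probe lay 220646 bases from the downstream one. It was dim, with scanner signals of 2.34 to 10.9, and was well above background on 2 arrays of each group. Position was not separated from brightness. Among the 12, the upstream probe was the brighter in Slc25a35, Slc25a36 and Slc25a46 and the dimmer in the others. In Slc25a39, for example, the scanner signals were 64 to 161 upstream and 3660 to 5050 downstream. The part of brightness in these changes was not tested. As background, the labelling kit primes its first copy at the poly(A) tail, which is the downstream end. As a value for each array, the median over genes of upstream minus downstream signal, centred per gene, was -0.06, -0.06, -0.14 and 0.01 in Prep1f/+ and 0.13, 0.05, 0.04 and 0.02 in Prep1deltaSM. The groups did not overlap, and the difference was positive on each slide, from 0.04 to 0.19. This array value was chosen after the data were seen, so no p-value is given for it. Per the labels RNA integrity was measured; its values were not used here, and the part of RNA quality or labelling in this shift and in the carrier values was not tested.

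Probes whose ends lie more than 60 bases apart in mm9, as when a probe crosses from one exon to the next, showed the same direction. This split of the probes was not among the comparisons planned beforehand, and is given as a description. All 8 kept Slc25a probes of this kind were higher, with a median of 0.40, where 57.4% of all 3130 such probes were higher, with a median of 0.05. Apart from the Slc25a3 probe, each of the 8 is also the farthest upstream probe of its gene in the comparison above. Within the family the shared direction therefore comes largely from the same probes, and is not a separate observation. Of the 8, 4 probes, or 50%, had an unadjusted p under 0.05 against 16.3% of the 3130. The 50 Slc25a probes with ends 60 bases apart had a median of -0.01, and 23 were higher (46%, against 44.3% of all probes of that kind). Of these 50, 8% had an unadjusted limma p under 0.05 with higher signal, against 8.65% of all probes of that kind. The 1 probe of Slc25a3 is of this kind, with ends spanning 542 bases, and the Slc25a20 probe is not. The part of probe position in the Slc25a3 difference was not tested with a second probe, since the array holds 1.

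**Figure D4:**
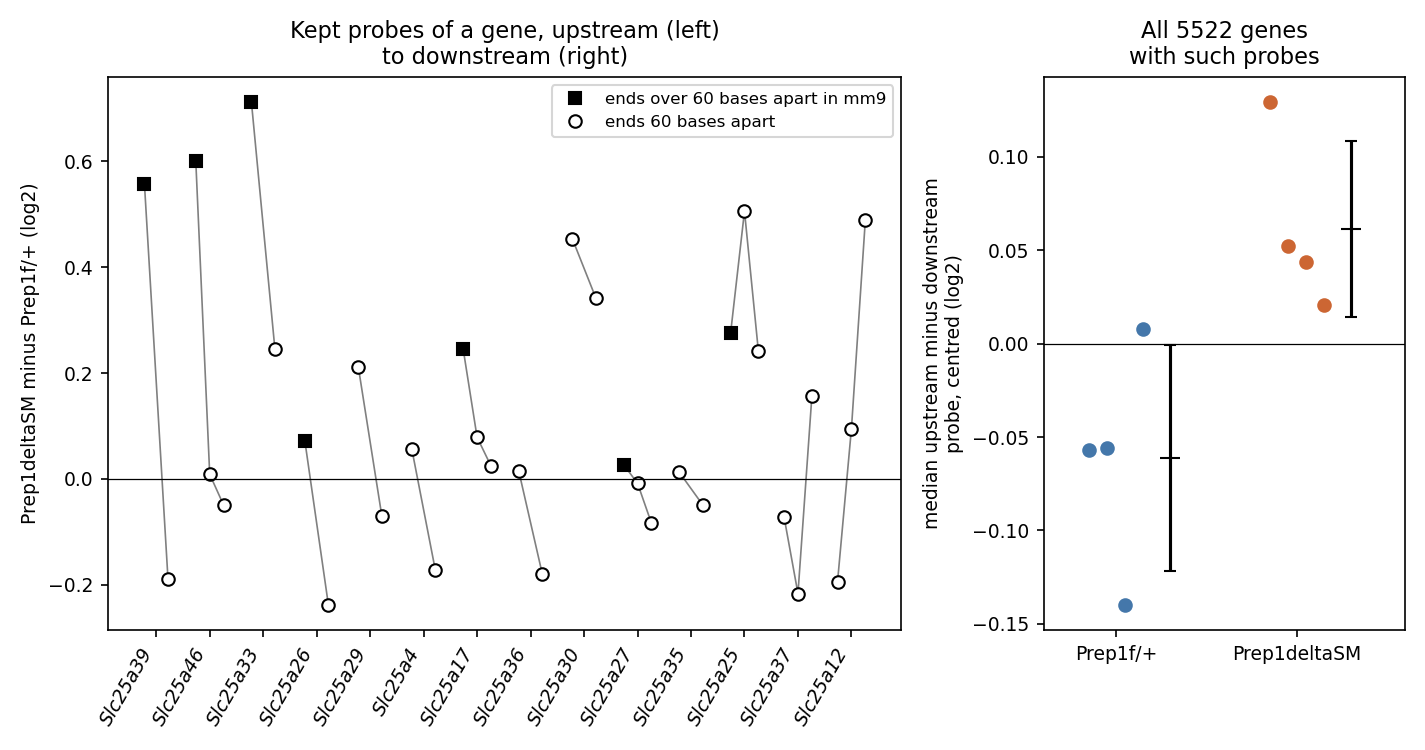
Left, difference of each kept probe for the 14 members with more than 1 such probe, in log2, ordered within a gene from upstream to downstream; squares are probes with ends over 60 bases apart. Right, the median upstream minus downstream signal of 5522 genes on each array, with mean ± SD (n = 4): the Prep1deltaSM arrays lie between 0.02 and 0.13 and all the Prep1f/+ arrays below them.

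The 6 members not tested were Slc25a18, a glutamate carrier, Slc25a21, the oxoadipate carrier, Slc25a31, an adenine nucleotide carrier of the testis, Slc25a41, an ATP-Mg/phosphate carrier, and Slc25a43 and Slc25a48. Probes of Slc25a21, Slc25a43 and Slc25a48 were not well above background on any array. The probes of Slc25a18 and Slc25a31 were so on 1 Prep1deltaSM array each, and that of Slc25a41 on 1 array of each group. Members that lie near each other did not always share a call: Slc25a23 was tested and Slc25a41 was not (chr17:57183867-57183926 and chr17:57172299-57172358), and Slc25a5 was tested and Slc25a43 was not (chr X). Slc25a29 and Slc25a47, close on chr 12, differed by -0.07 and -0.11.

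Of the 44 members, 34 had promoter windows in the RefSeq table of GRCm38.p6, 43 windows of 250 bases before to 50 after a start. The core motif of TALE factors such as Prep1, TGACAG, was searched on both strands. It was in 9 of the 43 windows (20.9%) and in 19.2% of all 32851 windows. The member genes with a match were Slc25a5, Slc25a15, Slc25a16, Slc25a21, Slc25a22, Slc25a23, Slc25a25 and Slc25a48. The windows of Slc25a3 and Slc25a20, the members with the smallest p, did not hold these letters. The longer Pbx-type motif TGATTGAC was in 0 of the 43 member windows and in 0.770% of all. The 250 bases before the start of both genes are printed, with no motif to mark.
Slc25a3, GRCm38.p6 chr10:91123968-91124217, minus: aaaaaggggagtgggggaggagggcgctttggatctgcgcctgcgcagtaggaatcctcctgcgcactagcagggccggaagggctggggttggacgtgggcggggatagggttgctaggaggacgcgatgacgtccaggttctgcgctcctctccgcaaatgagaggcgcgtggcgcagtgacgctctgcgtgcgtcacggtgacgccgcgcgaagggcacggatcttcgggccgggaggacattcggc
Slc25a20, GRCm38.p6 chr9:108661886-108662135, plus: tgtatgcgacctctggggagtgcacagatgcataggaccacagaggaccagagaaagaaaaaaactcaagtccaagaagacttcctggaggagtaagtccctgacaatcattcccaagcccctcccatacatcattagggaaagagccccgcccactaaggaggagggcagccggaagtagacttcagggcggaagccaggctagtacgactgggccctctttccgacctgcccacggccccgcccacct

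Genes that work around the carriers were read from lists of the inner and outer membrane. Carriers reach the inner membrane through the TOM and small TIM complexes, and of the 14 tested genes of this import route 2 were higher and 12 lower (median -0.07, as for all genes). Tomm6, a small subunit of the TOM complex, read 2.71, 2.80, 2.58 and 2.56 in Prep1f/+ and 2.28, 2.36, 2.42 and 2.52 in Prep1deltaSM, without overlap (-0.27 ± 0.09 SE; adjusted p = 0.233), and Timm13 differed by -0.22 ± 0.09 (SE). Vdac1, the main channel of the outer membrane, differed by -0.16 ± 0.10 (SE), and Ckmt2, the mitochondrial creatine kinase that takes ATP from the adenine nucleotide carrier, by -0.04 ± 0.14 (SE). Of 15 other inner membrane transporters 8 were higher and 7 lower. Ccdc109a, the calcium uniporter Mcu, differed by -0.19 ± 0.07 (SE) without overlap. Letm1, an ion exchanger, differed by 0.58 ± 0.20 (SE) with overlap. Its probe was dim, at -5.12, -4.22, -4.64 and -4.90 in Prep1f/+ and -3.89, -4.36, -4.26 and -4.03 in Prep1deltaSM. Signals that low lie near the background, where a difference is less certain. None of these genes passed the adjusted threshold.

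Markers of the cells in the sample moved between arrays as follows. The 12 skeletal muscle fibre markers, such as Ckm and Acta1, were all tested, with array means between -0.16 and 0.08 in both groups. The brightest of them followed the scaling of the arrays. Tnni2 and Tnnc2 read 11.51 and 11.68 in Prep1f/+ replicate 4, where the 75th percentile was 139. They read 11.07 and 11.17 in Prep1f/+ replicate 3, where it was 197. As for Slc25a4, the scanner signal of these probes hardly varied, so they cannot show how fibre content differed. All 12 slow fibre markers were lower, with a median of -0.48; their array means ran from -0.29 to 0.84 in Prep1f/+, highest in replicates 1 and 3, and from -0.71 to 0.04 in Prep1deltaSM. All 9 tested leukocyte markers were lower (array means -0.08 to 0.57 against -0.65 to 0.12), and 9 of 10 fibroblast markers were (-0.17 to 0.30 against -0.63 to 0.39). The 6 endothelial markers were 3 higher and 3 lower. The part of these cell types in the carrier values was not tested.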

How the data were processed

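The deposited intensity values (gProcessedSignal, 1 colour, Cy3, array design 014868) were made with Feature Extraction 10.5.1.1, protocol GE1_107_Sep09, per the file headers (9.1 per the submitters' processing notes, where the tool is Agilent Feature Extraction). Each was divided by the 75th percentile of its array and taken to log2, with non-uniform spots (0 to 11 per array) set missing and spots of a probe averaged. Saturation was flagged on 0 spots. A probe was kept if 4 of 8 arrays had it well above background (24488 probes), and the brightest probe represented a gene. The comparison used limma 3.58.1 (lmFit, then eBayes; R 4.3.3), two-sided, with Benjamini-Hochberg adjustment over 16016 genes, and checked on simulated data. A second deposited table by the authors holds intensity values of 32812 rows, linear and quantile-normalized, with column medians of 12.7 to 13.2 and no centring. Set against scanner values after quantile normalization, 26225 of its rows lay within 0.1 log2 on all arrays and gave an alternative; how the other rows were made is unknown. The members, gene lists and alternatives were chosen with earlier results of these data known. Genes were named by a rule: Pknox1, the 10 members with the smallest p, carriers of known importance in muscle, members whose probes disagree or were not measured, and a few genes of each other list. The labels do not pair mice. Other settings were quantile normalization, normexp (offset 50), other filters and probe rules, the slide as a block and arrays left out. Probe positions are in mm9; exon and UTR placement was not used here. 1 tested member is counted in the totals and not reported here by name.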

Additional observations from a re-analysis of the deposited data

Results flagged for a closer look

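Of 82 groups of 4 values examined (both groups for the 38 members, Pknox1, the family median and the upstream to downstream value), 7 had a single array whose gap to its nearest neighbour was past Dixon's critical value as a share of the whole range. Chance flags about 1 in 20 such groups. In Prep1f/+, replicate 4 was lowest for Slc25a3 (a share of the range of 0.936; 5.68 against 5.93 to 5.95) and for Slc25a1 (0.855; -1.96 against -1.02 to -0.86), and replicate 1 was highest for Slc25a36 (0.845; 0.11 against -1.11 to -0.92). In Prep1deltaSM, replicate 2 stood apart for Slc25a10 (0.898, lowest), Slc25a24 (0.848, lowest), Slc25a29 (0.882, highest) and Slc25a17 (0.888, highest). Their causes were not tested.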

How the results depend on the processing

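Slc25a3 and Slc25a20 stayed higher in Prep1deltaSM under the 18 alternatives other than the covariate, from 0.45 to 0.62 and from 0.32 to 0.45. Their limma adjusted p was 0.0232 to 0.372 and 0.0731 to 0.452. Each of these genes has 1 probe, and every slide held both genotypes. The filters, the probe rules and the slide block therefore could not change their differences, only their p. Slc25a30 ranged from 0.16 to 0.43. Slc25a members past an adjusted p of 0.05 numbered 0 except with normexp and quantile normalization, where Slc25a3 made it 1 among 26 genes in all. Members lower at an unadjusted p under 0.05 numbered 1 with no filter (Slc25a43, not well above background on any array; 5.94% of all genes), 1 with the filter on all 8 arrays (Slc25a26; 11.7%), 1 with the upstream to downstream covariate (Slc25a34; 5.92%), 2 without Prep1f/+ replicates 1 and 4 (Slc25a14, Slc25a45; 11.3%), and 0 to 4 with 1 array left out: 4 without Prep1f/+ replicate 4 (11.5% of all genes), and 1 without Prep1f/+ replicate 3 (Slc25a34; 9.77%) or Prep1deltaSM replicate 2 (Slc25a26; 7.91%). Members higher numbered 2 to 4 (4 with the mean of probes, where Slc25a33 joined, and with the most downstream probe, where Slc25a12 did), and Slc25a36 was among them without Prep1f/+ replicate 1. Probes higher numbered 8 with each probe as its own row. The Pknox1 call was lost, at a difference of -1.76 with the slide as a block (limma adjusted p = 0.062), -1.78 without Prep1f/+ replicates 1 and 4 (0.0605) and -1.72 with the covariate (0.479); with 1 array left out the difference was -1.84 to -1.68. The covariate lies lower in every Prep1f/+ array than in any Prep1deltaSM array, so it and the genotype cannot be told apart and the values fitted with it say nothing about stability. The family median moved by less than its spread within groups, though its sign turned under quantile normalization and several other settings. The most downstream probe and the covariate were chosen after seeing the data; Prep1f/+ replicates 1 and 4 were paired because earlier results set them apart on a principal component.

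None of the following members had passed, and most lay near 0. With quantile normalization Slc25a4 came to 0. Signs turned with normexp and quantile normalization for Slc25a11 (0.0045), Slc25a38 (0.0023) and Slc25a36 (-0.0054), and with the mean of probes for Slc25a39 (0.18), Slc25a37 (-0.044), Slc25a29 (0.070), Slc25a35 (-0.018) and Slc25a36 (-0.083). Without Prep1f/+ replicates 1 and 4 they turned for Slc25a33 (-0.044), Slc25a17 (-0.018), Slc25a5 (-0.0079) and Slc25a35 (-0.17). They turned with the most downstream probe for Slc25a46 (-0.049), Slc25a35 (-0.049) and Slc25a36 (-0.18). With the covariate they turned for Slc25a44 (0.031), Slc25a14 (0.084), Slc25a47 (0.015), Slc25a45 (0.21), Slc25a27 (0.42), Slc25a29 (0.013), Slc25a2 (0.36), Slc25a36 (-0.045) and Slc25a32 (-0.14). With 1 array left out, sign-turning members ranged over -0.0044 to 0.34 (Slc25a22), -0.12 to 0.54 (Slc25a25), -0.20 to 0.067 (Slc25a29), -0.095 to 0.075 (Slc25a5), -0.12 to 0.10 (Slc25a40), -0.15 to 0.071 (Slc25a2), -0.12 to 0.29 (Slc25a36), -0.059 to 0.056 (Slc25a32), -0.17 to 0.042 (Slc25a27), -0.037 to 0.076 (Slc25a46), -0.030 to 0.24 (Slc25a15), -0.013 to 0.075 (Slc25a17), -0.11 to 0.10 (Slc25a35), -0.22 to 0.021 (Slc25a24) and -0.044 to 0.0089 (Slc25a38). The causes were not tested.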
